A study of Mus musculus with 6 samples.

Results

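Somatostatin receptors are the 5 G protein-coupled receptors, encoded by Sstr1 to Sstr5, through which somatostatin acts. They were taken from the deposited table by gene symbol. Where a symbol had several RefSeq transcript rows, the row with the highest mean over the libraries was used. All 5 genes had values, among 21813 gene symbols in all. The study compared isolated islets of 3 male Ucn3 null mice with islets of 3 male wild-type littermates, all adult at 3 months of age, with 1 RNA library per animal. Islets were freed with collagenase. The labels give their cells as mixed, although the protocol for RNA extraction speaks of purification by cell sorting. The sources used here do not state how the allele was made, or the strain. Ucn3 encodes urocortin 3, a hormone that mouse beta cells release with insulin.

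Somatostatin is secreted by islet delta cells and holds back the release of insulin and glucagon. Its receptors couple to inhibitory G proteins of the Gi and Go classes. These G proteins lower cyclic AMP through adenylyl cyclase, open G protein-gated potassium channels and close voltage-gated calcium channels. Urocortin 3 is known to promote somatostatin release, so the receptors are the next step of the same local circuit. SSTR2 is known as a receptor of alpha cells, and SSTR3 is known for its place in the primary cilium.

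Values are RPKM, reads scaled for transcript length and library depth, so levels can be compared between genes. Between libraries, RPKM makes no allowance for uneven tissue make-up. Over genes averaging at least 1 RPKM, the median log2 difference, null minus wild type, was -0.034, and 0.005 with median-ratio scaling. Library depth, estimated from the steps between low values, was 42500000 to 51870000 reads. Ucn3 was at 136 to 157 RPKM in wild-type islets and at 1.61 to 1.80 RPKM in null islets, as labelled. The material held beta cell markers at a summed 230618 to 285846.5 RPKM and alpha cell markers at a summed 6372 to 10634 RPKM over the 6 libraries. Acinar markers, from exocrine tissue around islets, were uneven: their sum ran from 562.5 to 6879 RPKM in wild-type islets and from 5098 to 25496 RPKM in null islets. Of 12652 genes averaging at least 1 RPKM, 2 passed a limma adjusted p of 0.05, which is 0.0158%. In bulk RNA, fewer cells of a type and less RNA per cell cannot be told apart.

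One receptor dominated the family. Sstr3 averaged 23.9 RPKM over the 6 libraries, Sstr2 0.513, Sstr1 0.209, Sstr4 0.0392 and Sstr5 0.0217 RPKM. Sstr3 made up between 96.4% and 97.3% of the summed receptor RPKM in every library. The other 4 receptors together came to 0.673 to 0.905 RPKM. The ranges over the 6 libraries did not overlap between Sstr3 and Sstr2, or between Sstr2 and Sstr1. Sstr1 and Sstr4 were not separated beyond their spread, since Sstr4 stood above Sstr1 in Ucn3 null replicate 1. Sstr4 and Sstr5, the lowest pair, changed places between libraries, with Sstr4 higher in 3 of 6.

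**Figure D1:**
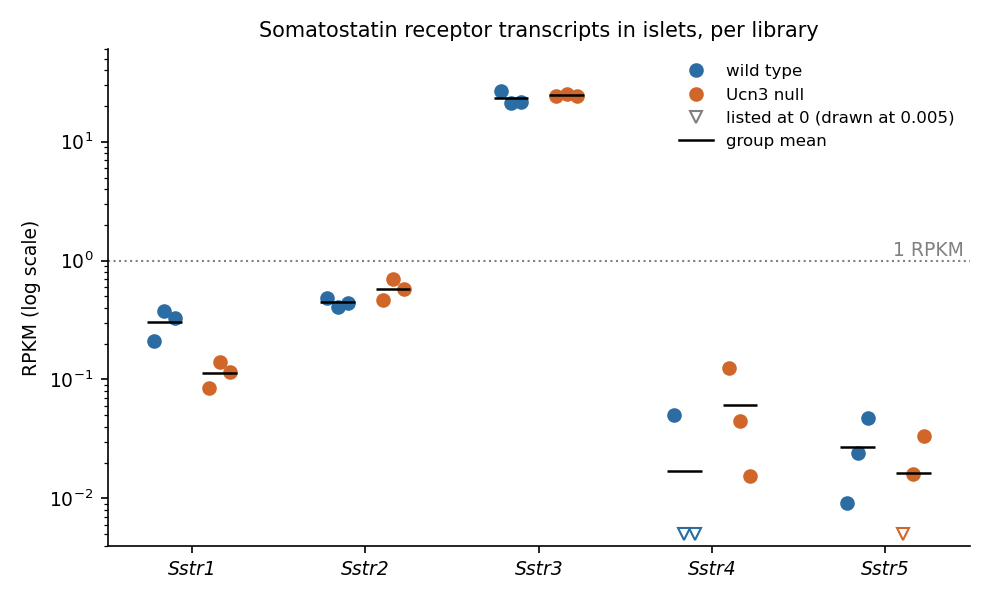
RPKM of the 5 somatostatin receptor genes on a log axis, with 1 point per library, blue for wild type and orange for Ucn3 null, bars at group means and open triangles for libraries listed at 0. Sstr3 sits between 21.3 and 26.7 RPKM in all libraries, the other receptors lie under 1 RPKM, and the Sstr1 points of the 2 genotypes do not overlap.

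By mean level, Sstr3 was higher than 93.0% of all gene symbols, Sstr2 than 35.7%, Sstr1 than 28.4%, Sstr4 than 14.8% and Sstr5 than 10.8%. Against a chosen list of 30 other receptors that couple to Gi, which does not hold all such receptors, Sstr3 ranked 2 of 35. The first was Adra2a, the alpha-2A adrenergic receptor, at a mean of 24.2 RPKM, and the order of that pair was split, with Adra2a lower in 3 of 6 libraries. Galr3 and Galr1, receptors of galanin, followed at 10.5 and 7.72 RPKM, then Gabbr1, a subunit of the GABA-B receptor, at 6.22 RPKM and Ffar3, a receptor of short-chain fatty acids, at 4.47 RPKM. Sstr3 was above these 4 in all 6 libraries. Sstr2 ranked 14, Sstr1 19, Sstr4 26 and Sstr5 28.

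**Figure D2:**
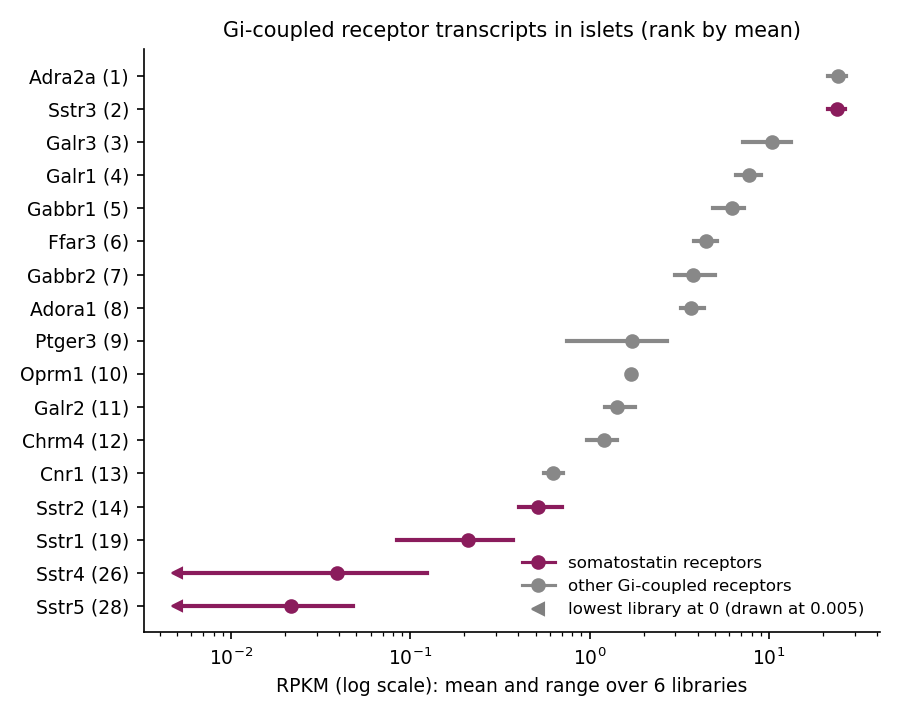
Mean (point) and range (line) of RPKM over 6 libraries, on a log axis, with ranks by mean in brackets. Shown are the 14 highest of the Gi-coupled receptor genes listed and the remaining somatostatin receptors. Sstr3 lies beside Adra2a at the top, and the other somatostatin receptors rank 14 or lower.

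The question for each receptor was whether its level differs where urocortin 3 is missing. Sstr3 held 26.7, 21.3 and 21.7 RPKM in wild type replicates 1 to 3 and 24.2, 25.4 and 24.2 RPKM in Ucn3 null replicates 1 to 3. The null libraries lay between the wild-type values, and the wild-type libraries were the more scattered. The means were 23.2 ± 3.01 RPKM in wild-type islets and 24.6 ± 0.686 RPKM in null islets (mean ± SD, n = 3 each). The log2 difference, on the log2(RPKM + 1) scale, was 0.08 (SE 0.10, limma adjusted p = 0.83). Its 95% interval reached from -0.14 to 0.31, or 0.909 to 1.24 times the wild-type level on that scale. About 13714 reads in wild type and 15358 in null islets lay behind these values, and counting error was small beside the spread between animals. The difference was 0.18 without wild type replicate 1 (limma adjusted p = 0.36) and -0.07 with the acinar marker mean as a covariate (limma adjusted p = 0.98).

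Sstr1 was lower in each null library than in any wild-type library. Wild type replicates 1 to 3 held 0.211, 0.374 and 0.329 RPKM and Ucn3 null replicates 1 to 3 held 0.0843, 0.139 and 0.116 RPKM. Wild type replicate 1 was the lowest of its group and still above the highest null library. The means were 0.305 ± 0.084 RPKM and 0.113 ± 0.0276 RPKM (mean ± SD, n = 3 each), so that wild type was 2.69 times null. An exact permutation test, two-sided, gave p = 0.1, the smallest that 3 against 3 libraries allow. Sstr1 lay under the level needed for the main test. Without that filter its log2 difference was -0.23 (SE 0.05, unadjusted p = 0.0035, limma adjusted p = 0.55), so it did not pass. That fit called 0.0183% of its 21813 genes, and 8.62% had an unadjusted p under 0.05. The pseudocount of 1 shrinks this value, because Sstr1 is far below 1 RPKM.

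Few reads stood behind Sstr1. Its values correspond to 35, 70 and 62 reads in wild type and 17, 26 and 21 reads in null islets. These rest on a length of 3896 bases, at which all 6 values are whole reads, while the annotated transcript has 2014 bases. Per unit depth, 167 reads in wild type against 64 in null islets gave a ratio of 2.75, with an exact 95% interval from 2.05 to 3.73 that covers counting error only. At the annotated length the values would be 86 against 33 reads, up to 0.45 read from whole numbers, and the interval would be 1.82 to 4.23. On the scale of reads at annotated lengths, limma-voom gave a log2 difference of -1.40 (adjusted p = 0.51), in a fit that called 0.00618% of 16180 genes. Among 4275 genes averaging 0.1 to 1 RPKM, 9.45% likewise had all null libraries below all wild-type libraries, and 0.912% had this together with a ratio at least as large as that of Sstr1. With the mean of acinar markers as covariate, the Sstr1 difference was -0.13 in place of -0.23.

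Sst, which encodes somatostatin, held 1676, 2117 and 2320 RPKM in wild-type islets and 643, 816 and 1035 RPKM in null islets. The groups did not overlap, and wild type was 2.45 times null (limma adjusted p = 0.34). Relative to Sst, Sstr1 stood at 0.126, 0.177 and 0.142 RPKM per 1000 RPKM of Sst in wild type and at 0.131, 0.171 and 0.112 in null islets. These values overlapped, at 0.148 ± 0.0259 and 0.138 ± 0.0298 (mean ± SD, n = 3 each). The ratio was formed after both genes had been seen, so it restates their values and no p is given. The separation of the groups in Sstr1 was not present in Sstr1 relative to Sst, and 3 libraries a group do not show the ratios to be equal. No other delta cell gene was set against Sstr1 in this way.

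**Figure D3:**
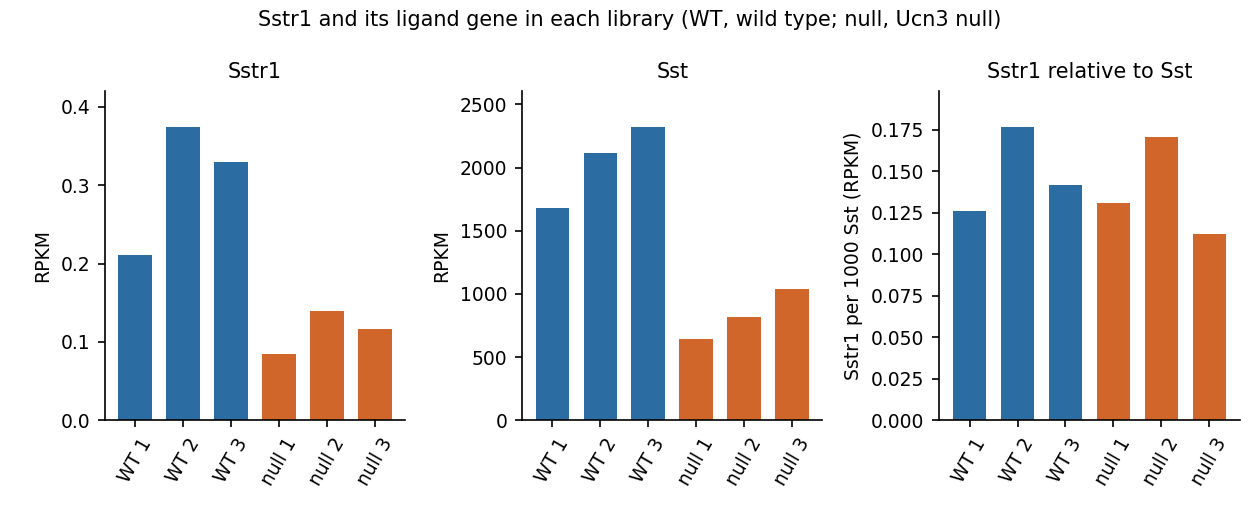
Bars give, for each of the 6 libraries, Sstr1 in RPKM, Sst in RPKM, and Sstr1 per 1000 RPKM of Sst, blue for wild type and orange for Ucn3 null. The null libraries are below all wild-type libraries in the first pair of panels, and in the last panel the genotypes overlap, from 0.112 to 0.177.

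Delta cell markers had lower mean values in null than in wild-type islets, and none passed the test over all genes. Of 7 listed genes 6 were tested, and all 6 had negative differences, as had 7809 of all 12652 genes tested. In 5 of the 6 all null libraries were below all wild-type libraries, as in 13.2% of all genes tested. The median log2 difference was -0.77, against -0.03 over all genes tested. The summed level was 1798 to 2461 RPKM in wild-type islets and 734 to 1135 RPKM in null islets, most of it Sst. Hhex, a transcription factor of delta cells, had a wild type to null ratio of 1.95, Rbp4, a retinol carrier, 1.73, Spock3 2.60, and O3far1, a fatty acid receptor, 1.34. Hhex, at a limma adjusted p of 0.067, reached 0.042 without Ucn3 null replicate 1. Without any other single library Hhex was at 0.16 to 0.32, and with the acinar marker mean as covariate at 0.87. Spock3, counted in both the 6 and the 5, passed the filter of 1 RPKM only because of its wild-type level. The wild-type libraries averaged 1.93 RPKM of this gene, whereas the null libraries averaged 0.742 RPKM. Spock3, at a limma adjusted p of 0.12, reached 0.025 with transcript rows summed, which can count shared reads in several rows. With 1 library left out Spock3 was at 0.16 to 0.65, and with the acinar covariate at 0.87. Frzb, the member with overlapping groups, was at 50.1 ± 3.38 and 49.8 ± 1.87 RPKM (mean ± SD, n = 3 each).

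Among markers of other cell types, none passed the test. Over all 12652 genes tested, 7809 had negative and 4843 had positive differences. All 8 tested ductal markers of 9 listed had negative differences, with sums of 247.8 to 320.7 RPKM in wild-type islets and 191.9 to 241.1 RPKM in null islets. Their median log2 difference was -0.43. In 4 of the 8 ductal markers all null libraries were below all wild-type libraries, where 13.2% of all genes tested did the same. The mean log2(RPKM + 1) of the ductal markers overlapped, with wild type replicate 3 at 4.08 and Ucn3 null replicate 1 at 4.13. All 16 acinar markers had positive differences, and their means overlapped too. Of 6 tested macrophage markers 5 had negative differences, with a median of -0.27, and the means overlapped. Both PP cell markers had negative differences, with a median of -0.27, and null sums of 2155 to 6263 RPKM on either side of the wild-type 3967 to 5032 RPKM. No marker of the delta, ductal or acinar lists was at 0 in all libraries. Beta cell markers split into 5 positive and 5 negative differences, and alpha and endothelial cell markers each into 5 and 3. All null libraries were above all wild-type libraries in 3 acinar and 2 beta cell markers, where 1.90% of all genes tested did the same. They were all below in 1 macrophage marker. Stellate and fibroblast markers, and Schwann and neuronal markers, each split into 3 and 1. What part these lists have in the values of Sstr1 was not tested.

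Sstr2 was the second receptor by level. It held 0.489, 0.406 and 0.443 RPKM in wild type replicates 1 to 3 and 0.464, 0.705 and 0.574 RPKM in Ucn3 null replicates 1 to 3. Ucn3 null replicates 2 and 3 were the highest of the 6, while Ucn3 null replicate 1 fell among the wild-type libraries. The means were 0.446 ± 0.0418 and 0.581 ± 0.12 RPKM (mean ± SD, n = 3 each), a null to wild type ratio of 1.30, with an exact two-sided permutation p of 0.2. With median-ratio scaling of the libraries, or with both transcript rows summed, the groups did not overlap, and p was 0.1, the smallest possible. Without the filter the log2 difference was 0.13 (SE 0.07, limma adjusted p = 0.66). The values stand for 32, 30 and 33 reads in wild type and 37, 52 and 41 in null islets, and the ratio of their rates, 1.30, had an exact 95% counting interval from 0.99 to 1.71. Without Ucn3 null replicate 2 the log2 difference was 0.07.

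Sstr2 has a second transcript row, NM_001042606, beside NM_009217. There wild type held 0.383, 0.324 and 0.368 RPKM and null islets 0.415, 0.633 and 0.543 RPKM. In that row the groups did not overlap, at a null to wild type ratio of 1.48 and the smallest exact two-sided permutation p of 0.1. Among genes averaging 0.1 to 1 RPKM, 3.72% had every null library above every wild-type library. The sources used here do not say how the authors assigned reads shared between the rows. Both rows of Sstr5 held the same estimated reads in all 6 libraries, so shared reads appear to be counted in each row. The rows are therefore not independent measurements, and summed rows can count a read more than 1 time.

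The ratio of Sstr2 to Sstr1 was formed after both genes had been seen, so it restates their values and was given no test. It was 2.31, 1.08 and 1.35 in wild type and 5.51, 5.06 and 4.94 in null islets. The means were 1.58 ± 0.647 and 5.17 ± 0.299 (mean ± SD, n = 3 each). Both genes are read from the same library, so this ratio does not depend on how libraries are scaled. Wild type replicate 1, the wild-type library with the least Sstr1, had the highest wild-type ratio.

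Sstr3 was also set against its ligand. There were 62.8, 99.5 and 107 RPKM of Sst per RPKM of Sstr3 in wild type and 26.6, 32.2 and 42.9 in null islets. These groups did not overlap, at 89.7 ± 23.6 and 33.9 ± 8.27 (mean ± SD, n = 3 each). This ratio too was formed after the values were seen. Of the pair, Sst had separated groups and Sstr3 did not. Cort, which encodes the related ligand cortistatin, was at 0.186 ± 0.0561 RPKM in wild-type islets and 0.166 ± 0.0469 RPKM in null islets (mean ± SD, n = 3 each), or 3 to 6 reads per library.

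Sstr4 and Sstr5 were at the edge of detection. Sstr4 was listed at 0.0506, 0 and 0 RPKM in wild type replicates 1 to 3 and at 0.124, 0.0448 and 0.0154 RPKM in Ucn3 null replicates 1 to 3. This is 3, 0 and 0 reads against 9, 3 and 1. For the wild-type libraries at 0, a count of 0 allows up to 3 reads, or 0.0448 and 0.0445 RPKM. Together 13 reads against 3 gave a null to wild type ratio of 4.11, with an exact 95% counting interval from 1.13 to 22.5. Of the 13 null reads 9 came from Ucn3 null replicate 1. The counting interval lies above 1, but the groups overlapped, and over libraries an exact two-sided permutation test gave p = 0.3. Without Ucn3 null replicate 1 the log2 difference went from 0.06 to 0.02.

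Sstr5 was listed at 0.00906, 0.024 and 0.0478 RPKM in wild-type islets and at 0, 0.0161 and 0.0332 RPKM in null islets. The reads were 1, 3 and 6 against 0, 2 and 4, and in Ucn3 null replicate 1 a count of 0 allows up to 0.0223 RPKM. The groups overlapped (exact two-sided permutation p = 0.5), and the ratio of 0.57 had a counting interval from 0.17 to 1.73. Its second transcript row, NM_011425, gave the same 1, 3, 6, 0, 2 and 4 reads. A difference in Sstr5 within this interval cannot be told from counting error at this depth. The interval leaves out the spread between animals.

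Libraries with more acinar transcript also held more Sstr4 reads. Ordered by the mean of log2(RPKM + 1) over 16 acinar markers, the libraries were wild type replicate 2 at 4.26, wild type replicate 3 at 6.16, Ucn3 null replicate 3 at 7.09, wild type replicate 1 at 7.36, Ucn3 null replicate 2 at 8.46 and Ucn3 null replicate 1 at 9.14. In the same order Sstr4 had 0, 0, 1, 3, 3 and 9 reads, and Sstr5 had 3, 6, 4, 1, 2 and 0. With the mean of acinar markers as covariate, the Sstr4 log2 difference between genotypes was -0.02 and that of Sstr5 was 0.01, in place of 0.06 and -0.01. The part of acinar tissue in these reads was not tested.

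**Figure D4:**
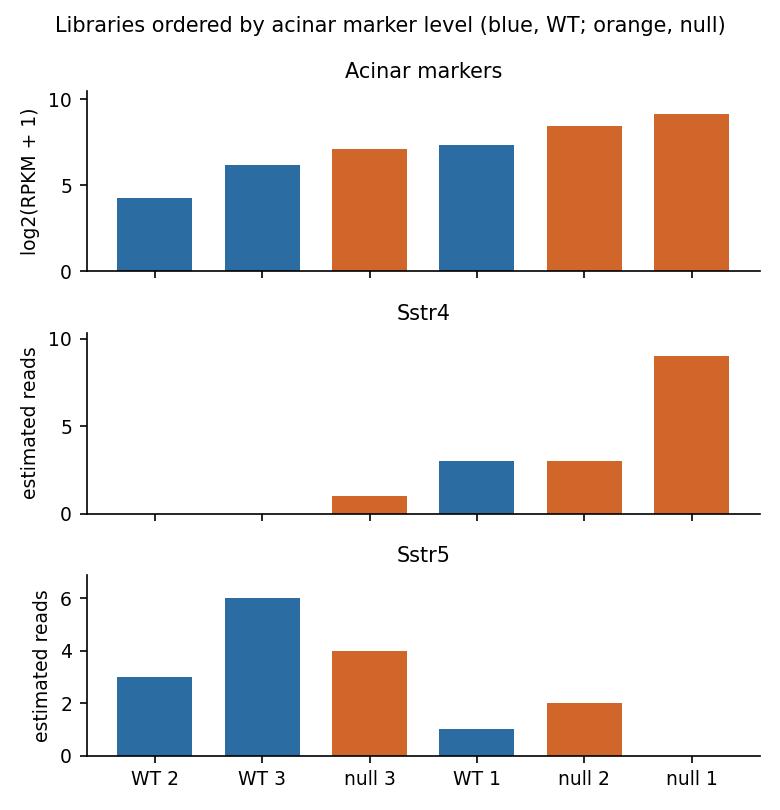
The 6 libraries, blue for wild type and orange for Ucn3 null, ordered from left to right by the mean log2(RPKM + 1) of acinar markers (top), with the estimated reads of Sstr4 (middle) and Sstr5 (bottom). Sstr4 goes from 0 to 9 reads along this order, and Sstr5 has its fewest reads, 0 to 2, in the 3 libraries at the right.

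Over the ligand, transducer, effector, regulator and other Gi-coupled receptor lists, limma called 0 of 59 tested genes at an adjusted p of 0.05, and limma-voom called 0. At an unadjusted p under 0.05 limma counted 5 of them, Sst, Arrb1, Gng10, Gng11 and Gngt2, where 9.36% of all genes tested did so, and limma-voom counted 6. All 5 inhibitory G alpha subunits were tested, and their sum was 203.5 to 209.3 RPKM in wild-type islets and 194 to 221.4 RPKM in null islets. Gnao1 and Gnai2, which encode Go and Gi alpha subunits, averaged 93.8 and 77.7 RPKM, above Sstr3 itself. The median log2 difference of the subunits was -0.03, and over all genes tested it was also -0.03. Gng12 and Gnb2 were the highest G beta and gamma subunits at 72.3 and 59.5 RPKM. With transcript rows summed Gng12 was at 429 RPKM, a sum that can count a shared read in several rows. Among these subunits 9 of 11 tested had negative differences, with a median of -0.12, where 7809 of all 12652 genes tested were negative. Of these 9 subunits, 5 had no overlap and were lower in null islets, where 13.2% of all genes tested did the same. They were Gnb1, Gng5, Gng10, Gng11 and Gngt2, named here after their values were seen, with log2 differences from -0.44 to -0.12. With the acinar covariate Gnb1 was at -0.06, Gng5 at -0.05, Gng10 at -0.14 and Gngt2 at -0.23. Gng11 went the other way, from -0.445 to -0.591.

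The effectors of these G proteins were measured as well. Of 4 G protein-gated potassium channel genes Kcnj6 alone averaged over 1 RPKM, at 5.21 RPKM. Of 9 adenylyl cyclases 4 were tested, led by Adcy6 at 13.3 RPKM and Adcy9 at 10.7 RPKM, with log2 differences from -0.03 to 0.08. Of 5 calcium channel pore subunits 4 were tested. All 4 had positive differences, from 0.08 to 0.32, as had 4843 of all 12652 genes tested. Cacna1d, an L-type channel, averaged 16.8 RPKM. Cacna1a, a P/Q-type channel, had no overlap between groups, at 13.3 ± 3.20 RPKM in wild-type islets and 16.6 ± 1.12 RPKM in null islets (mean ± SD, n = 3 each; limma adjusted p = 0.58). Wild type replicate 1 and Ucn3 null replicate 1, the nearest of the groups, were both at 15.9 RPKM. The log2 difference of 0.32 was 0.13 without wild type replicate 2 and 0.04 with the acinar covariate. With transcript rows summed, the means over all libraries were 59.2 RPKM for Cacna1a and 32.6 RPKM for Cacna1d. Such sums can count a shared read in several rows, so they do not rank the 2 genes by level. Over all genes tested 1.90% had no overlap with null islets higher.

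Among regulators of receptor signalling, of 8 receptor kinases and arrestins 7 were tested, with the kinases Adrbk2 and Adrbk1 at 16.6 and 14.6 RPKM. Arrb1, which encodes beta-arrestin 1, was named after its values were seen. It was at 1.41 ± 0.228 RPKM in wild-type islets and 0.847 ± 0.0382 RPKM in null islets (mean ± SD, n = 3 each). The groups did not overlap (limma adjusted p = 0.49), and 13.2% of all genes tested likewise had all null libraries below all wild-type libraries. Arrb1 reached a mean of 1 RPKM, the level needed for the test, only through the wild-type libraries. RGS proteins, which shorten G protein signals, split into 6 positive and 6 negative differences over 12 tested of 19, led in level by Rgs9 at 43.9 RPKM and Rgs11 at 34.3 RPKM. The 3 tyrosine phosphatases, among them Ptpn11 at 22.4 RPKM and Ptpn6 at 10.3 RPKM, had a median difference of 0.02. Of the other Gi-coupled receptors 11 were tested, 7 with positive differences and a median of 0.11. Galr2 and Gabbr2, named after their values were seen, had no overlap and were higher in null islets, by 0.15 and 0.25 on the log2 scale, where 1.90% of all genes tested had this pattern. Without Ucn3 null replicate 2 these differences were 0.08 and 0.15.

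Across the 6 libraries, the genes whose log2(RPKM + 1) followed Sstr3 most closely were Pag1, Tanc2 and Insl3. Their Pearson correlations with Sstr3 were 0.993, 0.985 and 0.985, as a description over 6 libraries that also share depth and tissue make-up. Pag1 held 2.94, 2.09 and 2.19 RPKM in wild-type islets and 2.58, 2.67 and 2.59 RPKM in null islets, with the same high wild type replicate 1 as Sstr3. Of 12651 genes compared, 126 reached a correlation of 0.9 and 22 reached 0.95. The 3 named genes were picked as the highest, and how often such a match arises over so few libraries was not tested.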

How the data were processed

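Islet RNA of 6 mice was sequenced from TruSeq RNA libraries, per the labels' protocols. The authors deposited RPKM values, given for each RefSeq transcript in a row of its own, per the file headers. STAR, bedtools and DESeq are named without roles or versions, with build mm9, per the submitters' processing notes. Of 28129 rows, 28011 had numbers in all 6 columns.

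Genes averaging at least 1 RPKM were fitted as log2(RPKM + 1) with limma 3.58.1 in R 4.3.3, with group as the only term, a mean trend and Benjamini-Hochberg adjustment at 0.05. Lower receptors were given by exact permutation over libraries and by the same fit without the filter. Fold changes are null minus wild type. Animals are not paired in the labels, and each library is 1 animal.

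Depth came from low RPKM values times GENCODE M21 transcript length, which fall on steps of single reads. Reads of a low receptor are the smallest set of whole numbers, within 0.1 read, that fits its 6 values, and are estimates. Intervals cover counting error only. The scripts were tested on simulated data. The reference is of another build, so no coordinates are given. No annotated exon of another gene overlaps the receptor exons.

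The receptors and lists were chosen with earlier results of these data known. Named were the receptors, their ligands, Ucn3, the 2 highest members of each pathway list, the 5 highest other Gi-coupled receptors, delta cell markers, the 3 genes most like Sstr3, and those said to be named later. Alternatives were another pseudocount, no filter, no trend, 2 scalings, an acinar covariate, summed transcript rows, limma-voom, leaving out each library and, for the reads of Sstr1, its annotated length (chosen after seeing the data). Figures used matplotlib 3.10.9 in Python 3.11.15.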

Additional observations from a re-analysis of the deposited data

How the results depend on the processing

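No paired analysis was possible because the labels pair no animals, and replicate numbers only name the samples. Sstr3 stayed above 0.05 in every alternative run, from 0.36 to 0.99. For the other receptors most alternatives give an exact p that cannot go below 0.1, or 0.2 with 1 library left out, and the acinar covariate gives none, so these show directions only. Sstr1 kept its negative and Sstr2 its positive difference in all of theirs, from -1.399 (limma-voom on estimated reads, added after seeing the data) to -0.129 (acinar covariate) and from 0.071 to 0.357. With the mean of acinar markers as covariate, the log2 difference of Sstr3 was -0.071, of Sstr4 -0.019 and of Sstr5 0.008, each the reverse of its sign without it, and the cause was not tested. The ratio of Sstr1 to Sst, as log2 of null over wild type, was -0.104 and ranged from -0.285 to 0.042 with 1 library left out, being 0.042 without wild type replicate 2 and 0.025 without Ucn3 null replicate 3. Genes passing numbered 2, and 4 without the filter, 1 with the acinar covariate, 1 with limma-voom, 1 with limma-voom at 10 reads or more, and 1 to 5 with 1 library left out. The no-trend fit and limma-voom at 1 RPKM cover only Sstr3 among the receptors. Depth limits Sstr4 and Sstr5, at 0 to 9 reads per library, and to a lesser degree Sstr1 and Sstr2.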
